A study of Mus musculus with 6 samples.

Results

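The genes described here encode the proteasome. They are the protein-coding genes whose GENCODE M21 symbol begins with Psma to Psmg and a number, leaving out Psmb8, Psmb9 and Psmb10 of the immunoproteasome and Psme1 and Psme2 of the interferon-inducible PA28 activator. The rule gave 45 of the 56748 genes in the files, lying on 16 chromosomes. Of these, 16 belong to the 20S core, 17 to the 19S cap and 7 to assembly factors, and 4 encode other activators or an inhibitor (Psme2b, Psme3, Psme4 and Psmf1). The remaining gene, Psmc3ip, matches the symbol pattern but encodes a recombination factor and no part of the proteasome. Of the 45 genes, 43 were tested, and Psma8 and Psmb11 stayed under the minimum level for the test.

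The proteasome degrades proteins that carry ubiquitin chains. Its 20S core is a barrel of outer α rings and inner β rings, with the proteolytic sites on the inside of the β rings, and the 19S cap binds ubiquitin chains, removes them and unfolds the substrate with a ring of ATPases before passing it to the core. Cells with impaired proteasomes are known to raise the transcripts of nearly all subunits together through the transcription factor NRF1, which the gene Nfe2l1 encodes.

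RNA was measured in 4T1 cells, a wild-type mouse mammary carcinoma line, after exposure to Au/MoS2/Bi2S3, a particle with a heterojunction of these materials, followed by near-infrared (NIR) irradiation (3 samples) and in control cells (3 samples). The treated cells were seeded for 24 h, kept overnight with particles at 125 µg/mL, irradiated for 8 min and washed after a further 24 h, while of the control cells the labels say only that they were controls. All samples are labelled as collected for 48 h and share 1 batch label. The cell line is a single tumour line, and the series says that RNA was pooled from 3 individuals. Separate cultures are not documented for the replicates. The p-values therefore reflect only how far these samples scatter, and that scatter may be technical. Samples with particles alone or light alone were not analysed here, so that the effects of the particles and of the light cannot be told apart.

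Levels are the deposited FPKM, by name fragments per kilobase of transcript and per M reads (M, mega). They can be compared between genes because they are per length. Reads at genes, worked back from the FPKM, were 33.8, 33.4 and 33.2 M in the treated libraries and 38.1, 37.8 and 32.6 M in the control libraries. The values had been scaled between libraries and are not per M reads of each library. The library size they imply was 1.32 to 1.33 times the reads at genes in treated libraries. In control libraries it was 0.719 to 0.839 times. The control libraries stood apart in composition, also from each other. They had between 15829 and 18988 genes above 0, against 21821 to 22088 in the treated libraries, and FPKM totals between 450409 and 532583, against 235757 to 241953 in treated libraries. Of 9 markers of epithelial cells, 4 were tested, and Krt8, Krt18 and Krt19, keratins of simple epithelia, were abundant in every library. Epcam had 0.760, 0.959 and 0.968 FPKM in treated samples and 4.43, 4.81 and 5.74 in control samples, and Cdh1 was under 0.1 FPKM throughout. All 4 tested epithelial markers were called lower in treated cells, beside 28.3% of all genes tested. The summed level of the list was 742 to 777 FPKM in treated and 1536 to 2262 FPKM in control libraries. Of 6 macrophage and leukocyte markers 2 were tested and none was called, with summed levels of 246 to 264 FPKM in treated and 81.6 to 447 FPKM in control libraries. Almost all of that sum was Cd68, a lysosomal protein, while Adgre1 and Itgam had no read in any library and Ptprc had none in 4 of 6. Of 6 fibroblast markers 2 were called lower, Col1a1 and Col3a1, and the summed level of 51.4 to 54.4 FPKM in treated libraries stood against 204 to 1166 FPKM in control libraries, with Col1a2, Dcn and Lum near 0. The 4 endothelial markers summed to 1.21 to 1.74 FPKM in treated and 0.790 to 1.16 FPKM in control libraries. The part of these markers in the results was not tested.

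As deposited, proteasome genes were called in both directions. In treated cells 9 of the 43 tested genes were called higher, 13 were called lower and 21 were not called, by limma at an adjusted p under 0.05 over all 11118 genes tested. Among all genes tested 56.1% were called, 27.9% higher and 28.3% lower, so that the counts of proteasome genes lay near this background. The direction depended on the scaling between libraries: with quantile normalization the counts were 20 higher and 1 lower, against 27.2% and 24.5% of all genes, and with library size as the only scaling 22 and 3, against 54.3% and 10.3%. As deposited, the median log2 fold change of the 43 genes was -0.17, against -0.01 for all genes tested. The groups did not overlap for 10 of the genes with treated cells above and for 15 with treated cells below, while among all genes this held for 33.6% above, 34.1% below and 67.7% in either direction. Called changes of 2-fold or more between mean FPKM were 2 higher and 6 lower, beside 16.9% and 16.7% of all genes. In bulk samples like these, fewer cells of a type and less RNA per cell cannot be told apart.

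The plot of levels by sample shows the treated samples near each other for most genes and the control samples apart from each other. The replicate spread on the log2 scale was wider in control than in treated samples for 42 of the 43 genes (all except Psmd11), with a median SD of 0.068 in treated and 0.435 in control samples. Over all genes tested these medians were 0.071 in treated and 0.268 in control samples, and the spread was wider in control samples for 10124 of 11118. Control 2 was nearest to the treated mean for 26 of the 43 genes, and for 48.4% of all genes tested. Control 3 was farthest for 27 of the 43, and for 56.7% of all genes. Control 1 lay between control 2 and control 3 for 32 of the 43, and for 7295 of all 11118 genes.

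**Figure D1:**
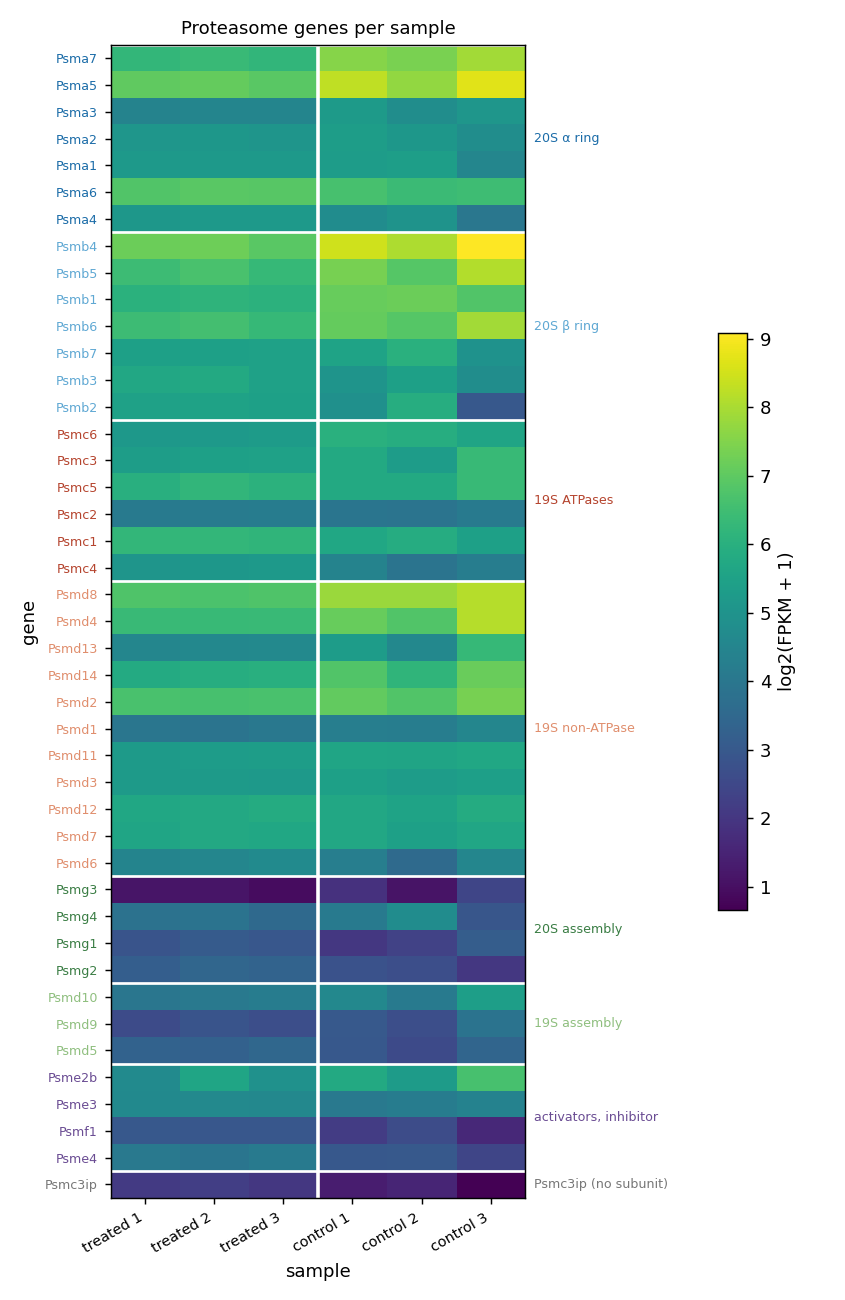
Levels of the 43 tested proteasome genes (rows, by role) in the 3 treated and 3 control samples (columns), as log2(FPKM + 1) in colour. The treated columns look alike, while control 3 is brightest for Psmb4 and Psma5, at 541 and 414 FPKM, and dark for Psmb2, at 6.98 FPKM.

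Within the 20S core, 2 of 14 tested genes were higher, 7 were lower and 5 were not called, with a median log2 fold change of -0.31. The shares over all genes tested, 27.9% higher and 28.3% lower, are the background for this class and its rings. The α ring, which forms the gate of the barrel, had 1 gene higher and 3 lower of 7, and its median was -0.01. Psma7 had 75.0, 82.7 and 72.6 FPKM in treated samples, against 189, 165 and 243 in control samples. The groups did not overlap, and the mean was 2.59-fold higher in control than in treated cells (log2 fold change -1.35 ± 0.172 SE, limma adjusted p = 0.00135). Psma5 had 129.9, 136 and 120.4 FPKM in treated samples, against 309, 211 and 414 in control samples (log2 fold change -1.22, limma adjusted p = 0.00795). Its lowest control sample was control 2, and its value is uncertain because the processed pseudogene Gm8394, 98.6% identical over 952 aligned bases, stood at 14.6, 14.9 and 15.5 FPKM in treated and 49.8, 24.9 and 77.4 FPKM in control samples.

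The third α ring gene called lower, Psma3, had 20.8, 21.7 and 21.3 FPKM in treated samples and 37.1, 26.8 and 33.1 in control samples (log2 fold change -0.57, limma adjusted p = 0.0149). Its pseudogene Gm13835 is identical over 665 bases and was measured at 38.2 to 45.0 FPKM in treated and 54.6 to 79.9 FPKM in control samples, above Psma3 itself, so both values are uncertain. Psma6 was the α ring gene called higher, with 109.9, 121 and 118 FPKM in treated samples, against 99.2, 84.1 and 86.8 in control samples (log2 fold change 0.37, limma adjusted p = 0.0421). Psma4 had 33.6, 35.9 and 35.8 FPKM in treated samples and 26.1, 31.1 and 15.1 in control samples, groups that did not overlap, but missed the threshold (limma adjusted p = 0.0985) and was called without control 2 (0.0277). Psma1 and Psma2 overlapped between the groups. Without treated 1, 2 or 3 Psma3 was not called (limma adjusted p 0.0549 to 0.0631), and of the fits that left out 1 library, Psma6 was called only in that without control 3 (0.0524 to 0.156 in the others).

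The β ring had 1 gene higher and 4 lower of 7, beside 27.9% and 28.3% of all genes tested. Its median log2 fold change was -0.85. Psmb4, a subunit without a proteolytic site, had 144, 149 and 119.7 FPKM in treated samples, against 354, 261 and 541 in control samples. This was the largest fall among the tested proteasome genes (log2 fold change -1.42 ± 0.280 SE, limma adjusted p = 0.00648). Psmb1, also without a site in mammals, had 65.1, 69.3 and 66.3 FPKM in treated samples and 138, 146 and 110.4 in control samples (log2 fold change -0.96, limma adjusted p = 0.00236). For both genes the highest treated value stayed under the lowest control value.

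The catalytic genes differed among themselves. Psmb5, which carries the chymotrypsin-like site and is the main target of proteasome inhibitors used in the clinic, had 86.1, 99.9 and 77.4 FPKM in treated samples, against 164, 114 and 276 in control samples (log2 fold change -0.98, limma adjusted p = 0.0414). Psmb6, with the caspase-like site, had 85.4, 93.4 and 77.2 FPKM in treated samples, against 134, 115 and 239 in control samples (log2 fold change -0.85, limma adjusted p = 0.0412). Psmb7, with the trypsin-like site, had 42.7, 42.5 and 43.5 FPKM in treated samples and 45.8, 64.0 and 30.01 in control samples, with a log2 fold change of -0.05 ± 0.265 SE (limma adjusted p = 0.876). Thus both Psmb5 and Psmb6 were under every control sample, while the control samples of Psmb7 lay on either side of the treated ones. The difference between the genes was not tested. The calls of Psmb5 and Psmb6 were lost without treated 1, 2 or 3 (limma adjusted p 0.0761 to 0.125) and without control 1 (0.0961 and 0.0740).

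Psmb3 was the β ring gene called higher, at 51.6, 53.7 and 43.3 FPKM in treated samples and 31.3, 42.4 and 26.98 in control samples (log2 fold change 0.57, limma adjusted p = 0.0447). The lowest treated and the highest control sample were 43.3 and 42.4 FPKM, and of the fits that left out 1 library it was called only in that without control 2 (limma adjusted p 0.0648 to 0.140 in the others). Psmb2 had 43.3, 45.1 and 43.0 FPKM in treated samples, against 29.0, 59.0 and 6.98 in control samples, a log2 fold change of 0.88 ± 0.690 SE (limma adjusted p = 0.313). Its control samples lay on both sides of the treated ones, control 2 above and the others below.

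**Figure D2:**
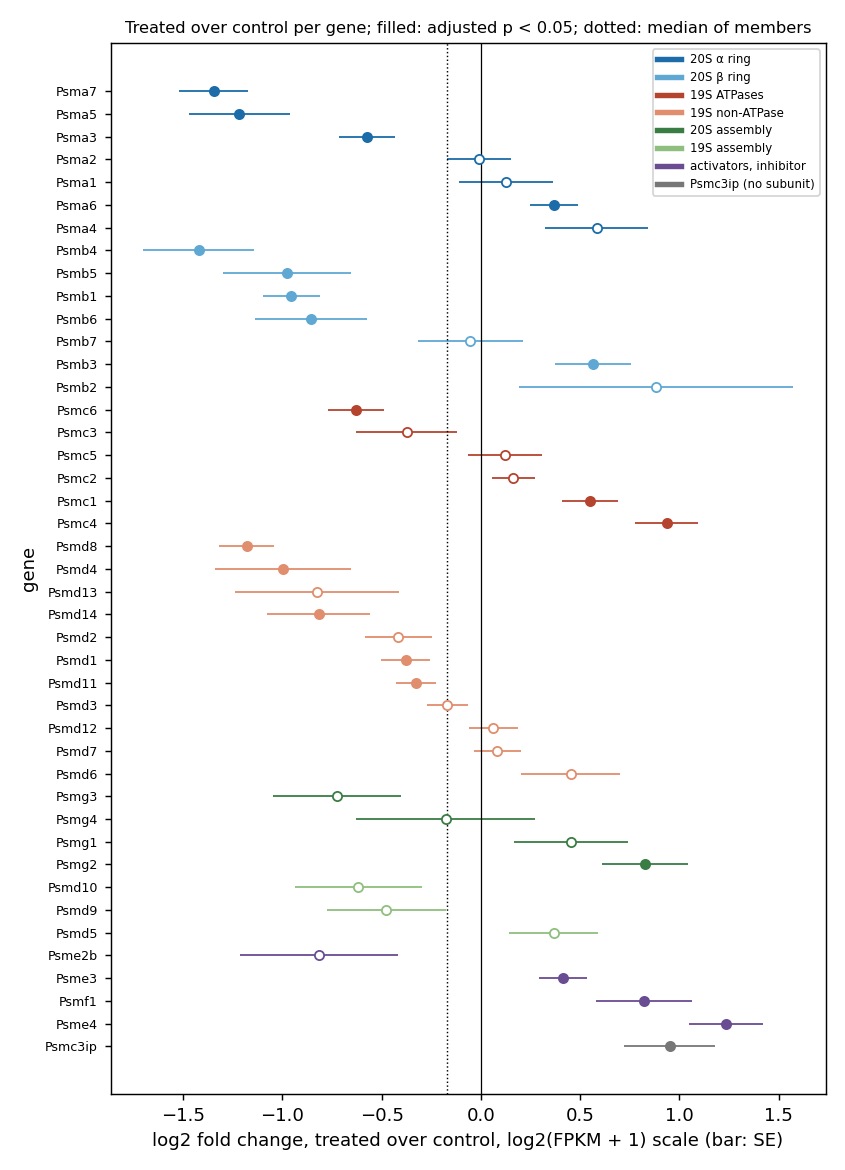
Log2 fold changes, treated over control, of the 43 tested genes on the log2(FPKM + 1) scale, with bars for the standard error, colours for the role, filled points for an adjusted p under 0.05 and a dotted line at the median of -0.17. Filled points lie on both sides of 0 in the α ring, the β ring and the ATPases, only below 0 among the other 19S subunits, and only above 0 among the activators and the inhibitor.

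Subunits of the core are built into each barrel in equal numbers, yet their transcripts were spread over a wide range, and as deposited the range was narrower in treated than in control libraries. Among the 14 tested core genes the most abundant exceeded the least abundant by 6.95, 6.86 and 5.64 times in treated samples, against 13.6, 9.71 and 77.6 times in control samples. The SD of the log2 levels over these genes was 0.822, 0.848 and 0.771 in treated samples and 1.31, 1.07 and 1.94 in control samples. The value of 77.6 in control 3 rests on Psmb4 at 541 FPKM over Psmb2 at 6.98 FPKM. In the 19S cap, the same ratio was 7.35, 7.38 and 7.03 in treated samples, against 15.6, 20.6 and 16.96 in control samples. Such ratios do not depend on 1 scaling factor per library, but quantile normalization and the removal of the trend with GC content, length and level reshape levels within a library. With quantile normalization the SD of the core genes was 0.845 to 0.939 in treated and 0.977 to 1.72 in control samples, and that of the cap genes 0.918 to 0.957 in treated and 0.976 to 1.09 in control samples. With the trend removed the core genes overlapped, at 0.962 to 1.00 in treated and 0.946 to 1.75 in control samples, and the cap genes stood at 0.936 to 0.960 in treated and 0.983 to 1.11 in control samples.

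**Figure D3:**
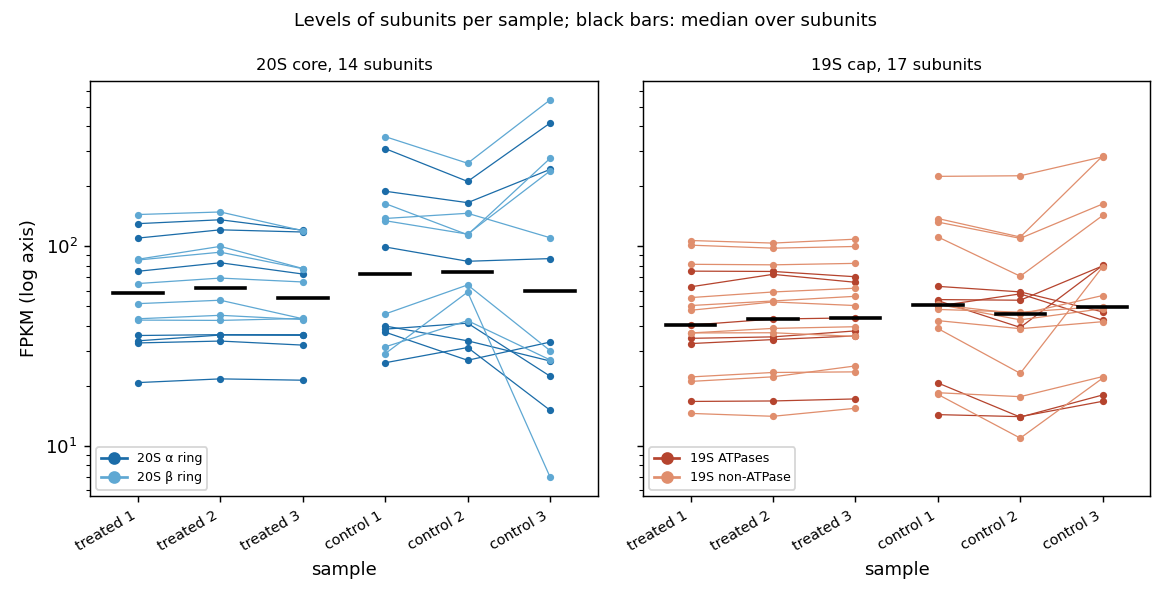
Levels in FPKM (log axis) of the 14 tested 20S core genes and the 17 genes of the 19S cap in each sample, a point per gene, with lines joining the points of a gene and black bars at the median of each sample. In treated samples the points of the core lie between 20.8 and 149 FPKM, in control samples between 6.98 and 541 FPKM.

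The summed level of the 17 cap genes over that of the 14 core genes was 0.875, 0.843 and 0.958 in treated samples and 0.691, 0.703 and 0.712 in control samples, without overlap. The ratio of the medians was 0.691, 0.703 and 0.798 in treated samples and 0.704, 0.617 and 0.832 in control samples, with overlap. Together the 43 tested genes took 0.681%, 0.702% and 0.687% of the reads at genes in treated libraries. The share in control libraries was 0.621%, 0.562% and 0.668%.

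Of the 17 genes of the 19S cap, 2 were higher and 6 lower, beside 27.9% and 28.3% of all genes tested. The other 9 were not called, and the median log2 fold change was -0.32. The 6 ATPases, which form the ring that unfolds substrates, included both genes called higher. Psmc4 had 32.6, 34.1 and 35.6 FPKM in treated samples, against 20.7, 13.9 and 17.99 in control samples. It was 1.94-fold higher in treated cells (log2 fold change 0.94 ± 0.158 SE, limma adjusted p = 0.00367), the clearest difference of the cap in that direction. Psmc1 had 75.1, 74.8 and 70.4 FPKM in treated samples and 50.2, 57.8 and 42.6 in control samples (log2 fold change 0.55, limma adjusted p = 0.0175). Without treated 1, 2 or 3 or without control 1 Psmc1 was not called (limma adjusted p 0.0559 to 0.0713).

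Psmc6 was the ATPase called lower, with 34.6, 35.2 and 37.7 FPKM in treated samples and 63.0, 59.1 and 46.9 in control samples (log2 fold change -0.63, limma adjusted p = 0.0109, and 0.0514 without treated 1). As deposited, Psmc4 and Psmc6, neighbours in role within the same ring, moved in opposite directions, but the log2 fold change of Psmc6 was 0.10 with library size only and 0.050 with quantile normalization, so that both genes were then positive. The level of Psmc4 over that of Psmc6 in the same library, a ratio chosen after the values were seen, was 0.941, 0.969 and 0.944 in treated samples and 0.328, 0.236 and 0.384 in control samples. Psmc2, Psmc3 and Psmc5 overlapped between the groups, with log2 fold changes of 0.16, -0.37 and 0.12. Psmc2 and Psmc5 were called without control 3 (limma adjusted p 0.0312 and 0.0353) and Psmc3 without control 2 (0.0329).

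Among the 11 cap subunits without ATPase activity, 5 were lower and none was higher, beside 28.3% and 27.9% of all genes tested. Their median log2 fold change was -0.38. Psmd8, of the lid of the cap, had 107, 104 and 109 FPKM in treated samples, against 224, 226 and 281 in control samples. It was called lower with the smallest p of all tested proteasome genes (log2 fold change -1.18 ± 0.139 SE, limma adjusted p = 0.00102). Psmd4, a receptor for ubiquitin chains, had 81.3, 80.7 and 82.1 FPKM in treated samples, against 138, 111 and 284 in control samples (log2 fold change -0.996, limma adjusted p = 0.0464). Psmd14, the deubiquitinase that strips chains from substrates, had 55.3, 59.0 and 61.7 FPKM in treated samples and 111, 70.8 and 143 in control samples (log2 fold change -0.82, limma adjusted p = 0.0352). The treated samples of Psmd4 lay close together, while its control samples were far apart, with control 3 the highest. The calls of Psmd4 and Psmd14 were lost without treated 1, 2 or 3 or without control 1 (limma adjusted p 0.0798 to 0.116).

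Psmd1, a scaffold subunit of the base, had 14.5, 14.1 and 15.4 FPKM in treated samples and 18.5, 17.6 and 22.2 in control samples (log2 fold change -0.38, limma adjusted p = 0.0395). Psmd11, of the lid, had 36.8, 38.8 and 39.5 FPKM in treated samples and 48.3, 46.8 and 49.9 in control samples (log2 fold change -0.32, limma adjusted p = 0.0331). Both falls were small, and neither was called without treated 1, 2 or 3 or without control 1 (limma adjusted p 0.0757 to 0.144). Psmd6 had the highest log2 fold change of these 11 genes, 0.45 ± 0.249 SE (limma adjusted p = 0.166), with 21.04, 22.2 and 25.2 FPKM in treated samples and 18.1, 10.9 and 21.9 in control samples. Psmd2, the other scaffold subunit and a docking site of shuttle factors, and Psmd3 lay below every control sample without being called, with limma adjusted p = 0.0768 and 0.2001. Psmd7 and Psmd12 overlapped between the groups at log2 fold changes of 0.08 and 0.06, and Psmd13 overlapped at -0.82 with control samples between 23.1 and 79.0 FPKM. Psmd2 and Psmd13 were called lower without control 2 (limma adjusted p 0.0132 and 0.0146), and Psmd6 was called higher without control 3 (0.0377).

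Assembly factors are chaperones that leave the particle when it is complete, and their transcripts were scarcer than those of the subunits. The median over the 7 genes was 8.08, 8.68 and 9.13 FPKM in treated samples and 6.97, 5.39 and 7.87 in control samples, against medians of 54.9 to 61.5 FPKM in treated and 59.9 to 74.1 FPKM in control samples for the 20S core. Only 1 of the 7 genes was called, beside 56.1% of all genes tested, and their median log2 fold change was -0.18. Psmg2, which pairs with Psmg1 in a chaperone of the α ring, was that gene, at 8.08, 9.95 and 9.13 FPKM in treated samples and 5.88, 5.39 and 3.09 in control samples. It was 1.89-fold higher in treated cells (log2 fold change 0.83 ± 0.217 SE, limma adjusted p = 0.0186), and not called without treated 2 or 3 (0.0685 and 0.0631).

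Its partner Psmg1 had 6.19, 7.44 and 6.73 FPKM in treated samples and 3.09, 4.01 and 7.87 in control samples (log2 fold change 0.46, limma adjusted p = 0.219). Control 3 alone was above the treated samples, and without it Psmg1 was called higher (log2 fold change 0.78, limma adjusted p = 0.00294). Psmg3 had 1.21, 1.19 and 0.914 FPKM in treated samples and 2.64, 1.14 and 4.37 in control samples (log2 fold change -0.73, limma adjusted p = 0.0981). Psmg4, the partner of Psmg3, had 13.3, 13.5 and 10.7 FPKM in treated samples and 16.0, 26.4 and 6.54 in control samples (log2 fold change -0.18, limma adjusted p = 0.755). The control samples of Psmg3 and Psmg4 overlapped the treated ones and were ordered differently. Without control 2 Psmg3 was called lower (limma adjusted p = 0.00512), and without control 3 so was Psmg4 (0.0379).

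The chaperones of the 19S base were not called. Psmd10, which encodes gankyrin, had 14.7, 15.6 and 17.2 FPKM in treated samples and 23.2, 16.0 and 40.6 in control samples (log2 fold change -0.62, limma adjusted p = 0.144). Psmd9 had 5.04, 6.29 and 5.43 FPKM in treated samples and 7.15, 5.45 and 13.5 in control samples (log2 fold change -0.48, limma adjusted p = 0.218). Gm26745, on the opposite strand, overlaps 25.5% of the exons of Psmd9. Psmd5 had 8.97, 8.68 and 10.1 FPKM in treated samples and 6.97, 4.86 and 9.71 in control samples (log2 fold change 0.37, limma adjusted p = 0.208). In each of the 3 genes control 2 was the lowest and control 3 the highest control sample. Psmd10 was called lower without control 2 (limma adjusted p = 0.0204) and Psmd5 higher without control 3 (0.0178).

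Activators that bind the core in place of the 19S cap, and the inhibitor PI31, were called higher for 3 of 4 genes. This stood beside 27.9% of all genes tested, and the median log2 fold change of the 4 genes was 0.62. Psme4 encodes PA200, a large nuclear activator of the core known for a role in the degradation of acetylated histones. It had 15.7, 14.3 and 16.5 FPKM in treated samples, against 6.97, 7.05 and 4.32 in control samples. Every treated sample lay far above every control sample, and the means differed 2.53-fold. The log2 fold change of Psme4 was the highest of the 43 tested genes (1.24 ± 0.187 SE, limma adjusted p = 0.00245). Its level over the median of the core genes in the same library, a ratio chosen after the values were seen, was 0.268, 0.232 and 0.301 in treated samples and 0.0961, 0.0952 and 0.0720 in control samples.

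Psme3, which encodes the nuclear activator PA28γ, had 24.4, 24.0 and 23.3 FPKM in treated samples and 15.8, 17.4 and 20.1 in control samples (log2 fold change 0.42, limma adjusted p = 0.0263). Psmf1, which encodes PI31, had 6.83, 6.81 and 6.69 FPKM in treated samples and 3.48, 5.10 and 2.12 in control samples (log2 fold change 0.82, limma adjusted p = 0.0275). Both lay above every control sample, but neither was called without treated 1, 2 or 3 or without control 1 (limma adjusted p 0.0748 to 0.101). Psme2b had 25.0, 47.8 and 29.6 FPKM in treated samples and 53.3, 38.1 and 98.9 in control samples (limma adjusted p = 0.126, and 0.0422 without control 2). It is 99.4% identical to Psme2 over 794 aligned bases, so that reads of these genes can be split between them and its value is uncertain.

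Psmc3ip, the recombination factor, had 3.30, 3.70 and 3.10 FPKM in treated samples and 1.51, 1.87 and 0.587 in control samples (log2 fold change 0.95, limma adjusted p = 0.0134, and 0.0502 without treated 2). An exon overlap of 385 bases with Mlx on the opposite strand covers 21.2% of its exons, and the strand setting is not given in the sources used here. Psma8, the α subunit of the testis proteasome, had no read in any library, which allows up to 0.0268 to 0.0272 FPKM in treated and 0.0379 to 0.0513 FPKM in control libraries at 3 reads. Psmb11, the β subunit of the thymus proteasome, had 6, 8 and 4 reads in treated libraries and none in control libraries. Its levels were 0.0279, 0.0378 and 0.0189 FPKM in treated libraries, against limits of 0.0200, 0.0198 and 0.0267 FPKM in control libraries. These limits cover counting error only, and no fold change is given for either gene.

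Proteasome genes are abundant transcripts, and the log2 fold changes of this experiment fell with level. Of the 43 tested genes, 19 were in the most abundant 10% of all genes tested, where 67.2% of all genes were called lower and 2.97% higher, with a median of -0.93. The proteasome genes of that 10% had a median of -0.82, with 10 lower and 2 higher (Psma6 and Psmc1). In the next 10%, where the median of all genes was -0.51, the 10 proteasome genes had a median of 0.06, with 2 called in each direction. Spearman's rho between log2 fold change and mean level was -0.611 over the 43 genes, -0.776 over the 14 core genes and -0.439 over all genes with length and GC content. These are descriptions across genes, which share the same 6 libraries and are not independent replicates. The part of this trend in the calls was not tested.

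**Figure D4:**
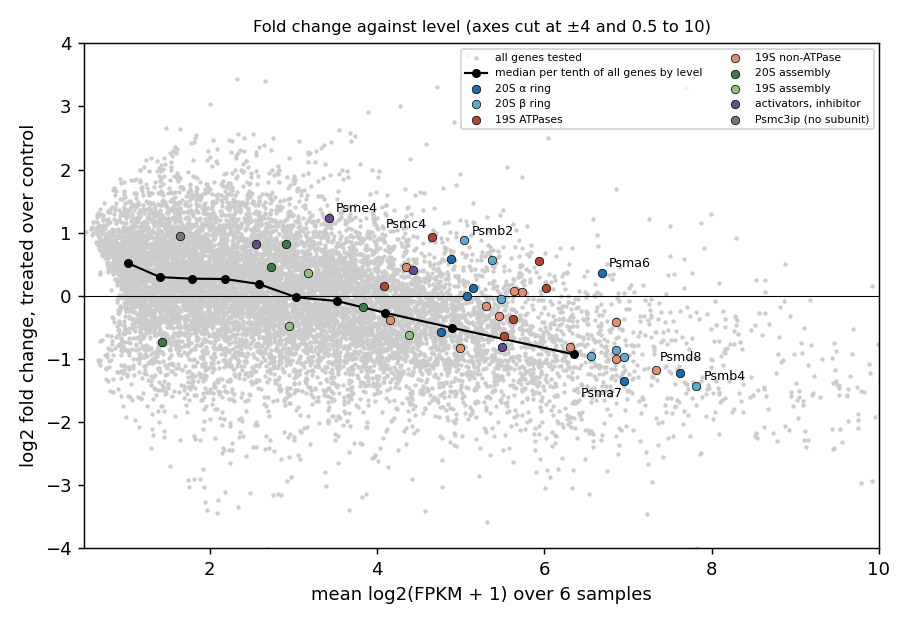
Log2 fold change, treated over control, against the mean log2(FPKM + 1) of the 6 samples for all genes tested (grey) and the 43 proteasome genes (coloured by role), with black points and line at the median of each 10% of all genes by level. The black line falls from 0.52 in the least to -0.93 in the most abundant 10%. Psmb4 and Psma7, abundant core genes, lie at -1.42 and -1.35, under the lowest black point, while Psme4, Psmc4 and Psma6 lie above 0.

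The direction of the proteasome genes as a whole depended on the scaling between libraries. Library size as the only scaling gave all genes tested a median of 0.60. With the trend of GC content, length and level removed, the counts of proteasome genes were 13 higher and 2 lower, against 22.5% and 22.7% of all genes. The median of the 20S core, -0.31 as deposited, was 0.41 with library size only, 0.34 with quantile normalization and 0.32 with the trend removed, and that of the 19S cap, -0.32 as deposited, was 0.41, 0.44 and 0.29 under these 3 settings. Psme4 and Psmc4 were called higher under all 15 alternatives run. Psma7 was called lower under 14 of 15, the exception being quantile normalization (log2 fold change -0.36, limma adjusted p = 0.0528). Each other called fall lost its call or its direction under at least 2 of the 15, and Psmd4 had log2 fold changes of -0.26, -0.03 and -0.12 under the 3 settings and Psmb5 -0.24, 0.0099 and 0.53. Without a filter on low values 6 proteasome genes were higher and 8 lower, against 14.7% and 9.8% of 27756 genes, and with a minimum of 5 FPKM 8 were higher and 13 lower, against 20.7% and 37.6% of 6687.

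**Figure D5:**
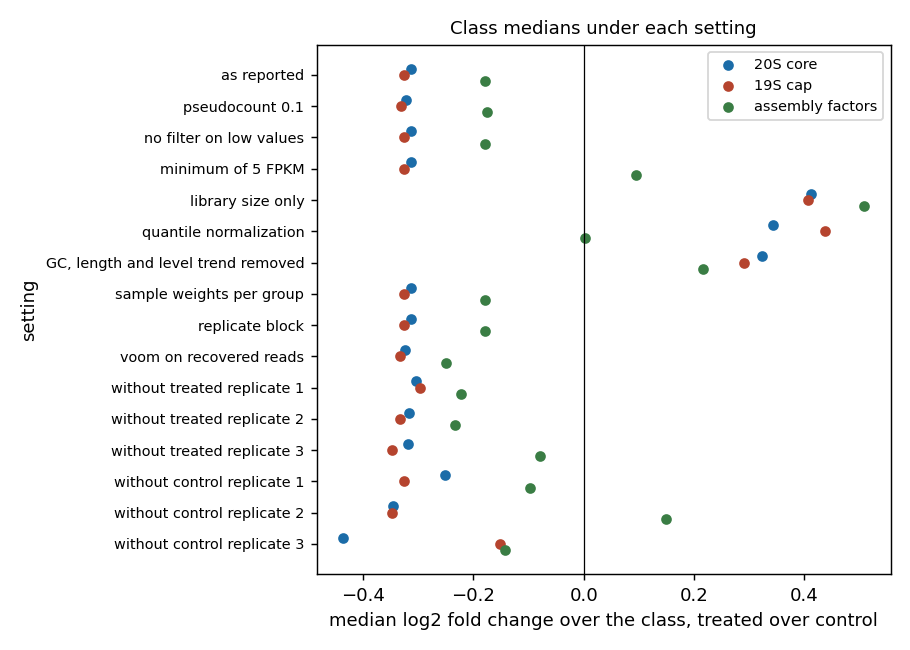
Median log2 fold change, treated over control, of the 20S core, the 19S cap and the assembly factors as reported and under each of the 15 alternatives. Points of the 20S core and the 19S cap lie left of 0 except with library size only, quantile normalization and the removed trend, where they lie between 0.29 and 0.44.

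The number of calls also rested on single libraries. Without control 3 there were 13 higher and 14 lower, beside 32.7% and 34% of all genes, and without control 2 there were 9 and 19, beside 32.3% and 32.7%. Without control 1 the counts were 4 and 7, beside 23% and 21.8%. Without treated 1 they were 4 and 5, beside 20.7% and 19.6%. Without treated 2 they were 2 and 6, beside 20.9% and 20.1%, and without treated 3 they were 3 and 6, beside 20.5% and 19.2%. The median of the cap was -0.15 without control 3, and that of the assembly factors was 0.15 without control 2.

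Ratios of genes within a library do not change with 1 scaling factor per library. The level of Psma7 over the median of the core genes was 1.28, 1.34 and 1.32 in treated samples and 2.60, 2.23 and 4.05 in control samples, and Psmc4 over the median of the cap genes was 0.808, 0.789 and 0.812 in treated samples and 0.405, 0.305 and 0.361 in control samples. Psma7 over Psma4, both of the α ring, was 2.23, 2.30 and 2.03 in treated samples and 7.23, 5.32 and 16.1 in control samples. Quantile normalization and the removed trend do change such ratios, and under both settings the groups still did not overlap for these 3 ratios. Psma7 over the core median was then 1.33 to 1.44 in treated and 2.10 to 3.64 in control samples, and Psmc4 over the cap median 0.733 to 0.785 in treated and 0.307 to 0.443 in control samples. These genes and ratios were chosen after the values were seen, so that the lack of overlap was partly set by the choice. The ratios carry no test.

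Transcription of proteasome genes is known to respond to NRF1, which binds antioxidant response elements with the core TGACNNNGC, and to the trimeric factor NF-Y, which binds CCAAT boxes. Nfe2l1, the gene of NRF1, had 61.0, 61.6 and 60.4 FPKM in treated samples and 38.9, 44.5 and 47.1 in control samples, a log2 fold change of 0.48 ± 0.116 SE (limma adjusted p = 0.0135). It lay above every control sample, and it was not called without treated 1, 2 or 3 (limma adjusted p 0.0586 to 0.0637). Ddi2, the protease that activates NRF1, had 7.93, 8.44 and 7.36 FPKM in treated samples and 2.32, 1.95 and 2.39 in control samples (log2 fold change 1.47, limma adjusted p = 0.000305). Of 14 tested genes in a list of such factors and their activators, 6 were higher and 2 lower, beside 27.9% and 28.3% of all genes tested. The list also holds Hspa5, the gene of a chaperone. Their median log2 fold change was -0.14. The lower ones were Hspa5, the chaperone BiP (log2 fold change -2.94), and Maff, and the higher ones included Nfe2l2, the gene of NRF2, and Nfya, Nfyb and Nfyc, which encode NF-Y and were chosen for naming after their values were seen (log2 fold changes 1.53, 0.29 and 1.32). Nfyb was called under 4 of 14 alternatives. Nfe2l2 and Maff were likewise named after their values were seen.

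Promoter windows of 300 bases, from 250 before to 50 after the start, were taken from RefSeq (GRCm38.p6). Windows of 37 of the 45 genes were used and searched on both strands. Genes without a window in the search include Psmg2, called higher, Psmb1, called lower, and Psma8, not tested. Their absence does not show that RefSeq holds no start for them. Some genes have more than 1 window, and a gene was counted where any of its windows held the motif. TGACNNNGC was present for 6 of the 37 genes (16.2%) and for 13.99% of all 27025 genes with a window. CCAAT was present for 14 of the 37 (37.8%) and for 41.1% of all. None of the 37 genes had both. Among genes with a window in the search, CCAAT was present for 5 of 8 called higher and for 4 of 12 called lower. The same 41.1% of all genes is the background. The windows around TGACNNNGC follow on the strand of the gene, with the match in capitals (as GCNNNGTCA where it lies on the opposite strand), because they set the gene with the highest log2 fold change, Psme4, beside catalytic genes that were called lower, Psmb5 and Psmb6. Psme4 (chr11:30771758-30771786, higher), Psmb5 (chr14:54618024-54618052, lower), Psmb6 (chr11:70525338-70525366, lower), Psmc6 (chr14:45329587-45329615, lower), Psmd9 (chr5:123228149-123228177, not called) and Psmd12 (chr11:107479278-107479299, not called) had these sequences:
Psme4: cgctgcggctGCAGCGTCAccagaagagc
Psmb5: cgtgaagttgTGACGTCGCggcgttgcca
Psmb6: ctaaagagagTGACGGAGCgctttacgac
Psmc6: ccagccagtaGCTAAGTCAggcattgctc
Psmd9: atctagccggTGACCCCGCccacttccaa
Psmd12: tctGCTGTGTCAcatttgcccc

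The matches begin 7 bases before the start in Psme4, 9 before in Psmb6, 31 before in Psmd9 and 47 before in Psmb5, and 227 and 247 before in Psmc6 and Psmd12. Genes with a match therefore included 1 called higher, 3 called lower and 2 not called. A match of letters is no evidence of binding.

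CCAAT boxes stood close to the start in genes called in either direction, and for that reason the box nearest to the start is shown for 3 genes called higher and for each of the 4 genes called lower that have one, with CCAAT or its complement ATTGG in capitals. The genes called higher are Psma6 (chr12:55384183-55384207), Psmb3 (chr11:97703381-97703405) and Psme3 (chr11:101316189-101316213). The genes called lower are Psmd4 (chr3:95042599-95042623), Psmd14 (chr2:61711688-61711712), Psma3 (chr12:70974626-70974650) and Psma7 (chr2:180042646-180042670):
Psma6: ccactaggtgCCAATggaattcctg
Psmb3: ggcccgccagCCAATggggaggatt
Psme3: agtgccggcgATTGGctgtgacgca
Psmd4: gagttctttgATTGGtgatgagcac
Psmd14: ccggcggactCCAATtggcggtaga
Psma3: aggaaaggctATTGGtggagagcgc
Psma7: ctgcctgtcgCCAATgcgcgctcga

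They begin 29, 43 and 14 bases before the start in Psma6, Psmb3 and Psme3, while those of Psmc1 and Psmc3ip, also called higher, begin 175 and 36 before it. In the genes called lower they begin 1, 4 and 13 bases after the start in Psmd4, Psmd14 and Psma3, and 196 before it in Psma7. Psma6 has a further window at another start (chr12:55398575-55398874) without a CCAAT box.

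The immunoproteasome and PA28 genes left out by the rule were lower for 4 of 5 and higher for none. Among all genes tested 28.3% were lower and 27.9% higher. The median log2 fold change of the 5 genes was -1.19, against -0.31 for the constitutive core. The 5 genes include Psme1 and Psme2, which encode an activator and no core subunit, at -1.38 and -0.99. Psmb8, the interferon-inducible counterpart of Psmb5, had 12.9, 15.2 and 12.6 FPKM in treated samples, against 39.2, 28.7 and 55.8 in control samples (log2 fold change -1.49, limma adjusted p = 0.00324). Psmb9, named after its values were seen, was the one not called (log2 fold change -0.17, limma adjusted p = 0.263). The call of Psmb8 held under all 15 alternatives, whereas that of Psmb5 held in direction and call under 6 of 15, with log2 fold changes of 0.0099 under quantile normalization and 0.53 with the trend removed.

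Of 10 tested proteasome components and assembly factors with other symbols, 1 was higher and 3 were lower, beside 27.9% and 28.3% of all genes. Their median log2 fold change was -0.30. Ube3c, a ubiquitin ligase that works at the proteasome, had 5.48, 5.49 and 5.89 FPKM in treated samples and 1.73, 2.05 and 2.41 in control samples (log2 fold change 1.12, limma adjusted p = 0.000703). Sem1, a small subunit of the cap, had 17.8, 24.2 and 17.6 FPKM in treated samples, against 114, 50.3 and 224 in control samples (log2 fold change -2.41, limma adjusted p = 0.00884). Akirin2, a factor for nuclear import of proteasomes, and Txnl1, a thioredoxin-like protein of the cap, were the other two falls, at log2 fold changes of -0.80 and -0.49. Txnl1 was not called without treated 1, 2 or 3 (limma adjusted p 0.0540 to 0.0684). Adrm1, a ubiquitin receptor, Usp14 and Uchl5, deubiquitinases of the cap, and Pomp, the maturation factor of the core, were not called, with log2 fold changes of -0.09, -0.19, -0.33 and -0.65. Pomp had 15.8, 17.3 and 14.5 FPKM in treated samples and 28.6, 34.3 and 16.7 in control samples, and without control 3 it was called lower (limma adjusted p = 0.00133).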

How the data were processed

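RNA-seq of 3 treated and 3 control samples was used, grouped by the treatment labels. The authors deposited 1 FPKM value per gene and sample, per the file headers. Not given in the sources used here are the aligner, the counter, the build, the annotation and whether strand was used. Poly-T selected RNA was sequenced as paired reads, per the labels' protocols. Symbols, exons and GC content came from GENCODE M21 by identifier. Low values were whole multiples of 1 read in 92.5% to 93.4% of cases under 200 reads (within 0.02 of a read). All 45 genes gave whole reads, and the lowest read number of a tested gene was 25. Size factors by median of ratios were 1.01 in every library, so the values had been scaled between libraries.

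Groups were compared with limma 3.58.1 (R 4.3.3, trended prior) on log2(FPKM + 1), with group as the only term. The 11118 genes tested reached 1 FPKM in at least 3 of 6 libraries. Fold changes on this scale understate those of low genes. P-values were adjusted by Benjamini-Hochberg over all genes tested and called under 0.05. The procedure was tested on simulated data that gave both groups the same spread per gene, unlike these libraries. Unequal spread was not covered by that test. An unadjusted p under 0.05 was reached by 23 of the 43 genes and by 6899 of all genes. Values are FPKM per sample; errors of log2 fold changes are standard errors. Alternatives were another pseudocount, 2 filters, 3 scalings, weights per group, a replicate block, voom on the recovered reads and leaving out each sample. Near-identical copies were searched with BLAST 2.17.0 (at least 95% identity over 300 bases), and 10 of the 45 genes had a match above 1 FPKM. The matches of Psmc3ip to Mlx and of Psmd13 to Sirt3 are exons that overlap on opposite strands, not copies. Exons of 12 genes overlap another gene, 9 on the opposite strand. The largest shares of exons overlapped on the opposite strand were 25.5% for Psmd9, 21.2% for Psmc3ip and 11.8% for Psmb7. With the strand setting unknown, reads of such genes may be mixed.

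The genes and lists were chosen with earlier results of these data known. All of the 45 genes could be named. Full values were given, per role, for the smallest p and the highest and lowest log2 fold change, and for a list of subunits with known roles. Of other lists, set genes and the smallest p per direction were named. Sem1, Txnl1, Nfe2l2, Maff, Nfya, Nfyb, Nfyc, Ubb and Psmb9 were named after their values were seen.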

Additional observations from a re-analysis of the deposited data

How the results depend on the processing

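Counts of called proteasome genes, 9 higher and 13 lower as reported, were 22 and 3 with library size only, 20 and 1 with quantile normalization and 13 and 2 with the trend of GC content, length and level removed. Without a filter they were 6 and 8, and with a minimum of 5 FPKM 8 and 13. With weights per group, the pseudocount of 0.1 and voom on recovered reads both counts stayed within 1.5 times. Leaving out each library in turn gave between 2 and 13 higher and between 5 and 19 lower. The median log2 fold change of the 20S core (-0.31) was 0.41, 0.34 and 0.32 under the 3 other scalings and between -0.44 and -0.25 with a library left out. That of the 19S cap (-0.32) was 0.41, 0.44 and 0.29, and between -0.35 and -0.15. That of the assembly factors (-0.18) was 0.51, 0.0028 and 0.22, 0.095 with the minimum of 5 FPKM, where fewer genes were tested, and between -0.23 and 0.15 with a library left out. The SD of log2 levels among cap genes, treated minus control, was -0.33 as reported, -0.090 with quantile normalization and -0.10 with the trend removed, settings chosen for this value after seeing the data. The cause was not tested.

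The labels do not pair the samples by number. Deviations of same-numbered treated and control samples from their group means correlated at -0.0538, -0.111 and -0.140 across genes. With 3 samples a group such values cannot show whether a number marks a shared culture or day. With the replicate block 7 genes were higher and 9 lower, beside 23.5% and 24% of all genes, and no treated sample correlated best with the control sample of its own number.

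Single genes changed the sign of their log2 fold change under some settings, and most of them were not called as reported. Among the proteasome genes called lower, Psma3, Psma5, Psmb5, Psmb6, Psmc6, Psmd1, Psmd11 and Psmd14 changed sign under at least 1 setting. No proteasome gene called higher did so. With library size only, where all genes had a median of 0.60, the changed values were Adrm1 0.62, Pomp 0.059, Psma2 0.72, Psma3 0.15, Psmb7 0.68, Psmb9 0.44, Psmc3 0.36, Psmc6 0.10, Psmd1 0.33, Psmd10 0.10, Psmd11 0.41, Psmd2 0.33, Psmd3 0.56, Psmd9 0.18, Psmg4 0.51, Txnl1 0.23, Ubb 0.0057, Uchl5 0.35 and Usp14 0.50. With quantile normalization they were Adrm1 0.34, Psma2 0.55, Psmb5 0.0099, Psmb6 0.14, Psmb7 0.61, Psmc3 0.34, Psmc6 0.050, Psmd11 0.34, Psmd14 0.050, Psmd2 0.56, Psmd3 0.46, Psmg4 0.0028 and Ubb 0.67. With the trend removed they were Adrm1 0.39, Nfyb -0.12, Psma2 0.28, Psma5 0.0088, Psmb5 0.53, Psmb6 0.10, Psmb7 0.37, Psmc3 0.29, Psmd11 0.16, Psmd2 0.36, Psmd3 0.49, Psme2b 0.27, Psmg4 0.75 and Ubb 0.83. With a library left out, log2 fold changes ran between -0.16 and 0.13 for Psma2, -0.014 and 0.14 for Psmd12, -0.68 and 0.25 for Psmg4, -0.33 and 0.20 for Psmb7, and -0.14 and 0.28 for Psma1. Depth limits Psma8 and Psmb11, of which 0 to 8 reads were found. Precision of the other genes is limited by 3 samples a group and by the spread of the control samples.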

Other observations

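Genes that supply the proteasome with substrates moved in both directions. Of 6 tested ubiquitin and E1 genes, 1 was called higher in treated cells and 4 lower, beside 27.9% and 28.3% of all genes. Their median log2 fold change was -0.95. Rps27a, which encodes ubiquitin fused to a ribosomal protein, had 406, 405 and 442 FPKM in treated samples, against 1738, 1388 and 2322 in control samples (log2 fold change -2.09, limma adjusted p = 0.000751). Ubb, a polyubiquitin gene named after its values were seen, had 507, 633 and 502 FPKM in treated samples and 1061, 1425 and 497 in control samples (limma adjusted p = 0.156, and 0.00338 without control 3). Uba6, the E1 enzyme shared by ubiquitin and FAT10, was higher, at 4.14, 4.66 and 5.00 FPKM in treated samples and 2.82, 3.24 and 1.85 in control samples (limma adjusted p = 0.0196). Its call was lost without treated 2 or 3 (limma adjusted p 0.0669 and 0.0761).

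Of 6 tested shuttle factors, which carry ubiquitylated proteins to the cap, 1 was higher and none lower, beside 27.9% and 28.3% of all genes. Ubqln2 was that gene, at 32.0, 30.2 and 29.7 FPKM in treated samples and 12.9, 19.7 and 6.80 in control samples (log2 fold change 1.27, limma adjusted p = 0.0203). Its call was lost without treated 1, 2 or 3 or without control 1 (limma adjusted p 0.0575 to 0.0661). Of 9 tested genes of the p97 segregase, which extracts proteins for degradation, and its cofactors, 4 were higher and 3 lower. The same shares of all genes, 27.9% and 28.3%, are the background here. Faf2 had 9.69, 10.1 and 9.75 FPKM in treated samples and 2.46, 2.93 and 2.25 in control samples (log2 fold change 1.62, limma adjusted p = 0.000261). Faf1 had 10.2, 10.5 and 11.2 FPKM in treated samples, against 31.5, 23.2 and 34.8 in control samples (log2 fold change -1.39, limma adjusted p = 0.00107). These related cofactors moved in opposite directions, and both kept their calls under all 15 alternatives run.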
